A study of Mus musculus with 4 samples.

Results

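The Sonic hedgehog (Shh) signaling pathway was described through 9 genes fixed by name: the ligand Shh, its receptor Ptch1, the co-receptor Boc, the decoy receptor Hhip, the transducer Smo, the repressor Sufu, and the transcription factors Gli1, Gli2 and Gli3. All 9 were found among the 24532 gene numbers of the deposited tables. Bulk RNA-seq was available from the cerebellum of 2 wild-type (WT) mice and 2 Kdm3b+/- mice, which carried a gene-trap vector in an intron of 1 Kdm3b allele in every cell. Kdm3b is a demethylase of histone H3 lysine residues. The mutants came from a single targeted ES cell line, were backcrossed to C57Bl/6N and were later crossed several times to C57Bl/6J, so their background was mixed. The WT mice were their littermates. According to the study's methods the animals were adult males, and the tissue was granule cell-enriched (GCE) tissue cut by hand from slices of the vermis. It held the granule cell layer together with neighbouring cell types.

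Hedgehog ligands bind Ptch1 at the primary cilium, and this binding lifts the inhibition that Ptch1 exerts on Smo. Active Smo releases Gli proteins from Sufu, and the Gli proteins then switch on target genes, among them Gli1, Ptch1 and Hhip themselves. In the developing cerebellum, Shh from Purkinje cells drives the division of granule cell precursors, while in the adult Purkinje cells still produce Shh and Bergmann glia are known to respond to it.

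Expression was given in TPM (transcript abundance), a level per transcript length that sums to the same total in each library. The depth, computed as gigabases of aligned sequence from the ratio of coverage to FPKM, was 4.92 and 5.74 in the WT libraries and 5.69 and 6.69 in the Kdm3b+/- libraries. Kdm3b itself had 9.1 and 11 TPM in WT mice against 8.3 and 7.9 TPM in Kdm3b+/- mice. Its groups did not overlap, but its log2 fold change of -0.27 (SE 0.17) did not pass the limma test (adjusted p = 0.424). All fold changes are Kdm3b+/- over WT on the log2(TPM + 1) scale, which understates the change of low genes. A gene was called differentially expressed (DEX) when limma gave an adjusted p under 0.05 with a fold change over 1.2.

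None of the 9 genes was called DEX. The limma test covered the 5 members with a mean TPM of at least 1 (Ptch1, Smo, Boc, Hhip and Sufu), and 1 of these, Smo, had an unadjusted p under 0.05. Of all 13652 genes tested, 0.461% were called DEX, 0.344% as lower and 0.117% as higher in Kdm3b+/- mice. In the lower direction 11.5% of the tested genes had an unadjusted p under 0.05, and in the higher direction 5.47% had one. The median log2 fold change of the 5 tested members was -0.34, and that of all tested genes was -0.07. Shh, Gli1, Gli2 and Gli3 fell below the TPM limit and were fitted only without the filter. That fit called 0 of the 9 members and 0.00521% of 19182 genes, and an unadjusted p under 0.05 was found for 3 members (Smo, Gli1 and Gli2) and for 12.6% of the genes.

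The levels of the 9 genes spanned a wide range (see the plot of TPM by library). Boc was the most abundant with a mean of 33.95 TPM over the 4 libraries, followed by Ptch1 with 11.55, Sufu with 7.44, Smo with 4.67 and Hhip with 1.04 TPM. The transcription factors stood lower, with 0.777 TPM for Gli3, 0.565 for Gli2 and 0.428 for Gli1, and Shh was the lowest with 0.116 TPM. The ranges of the libraries overlapped between Ptch1 and Sufu and between each neighbouring pair from Hhip down to Gli1, so the ranges alone do not settle those orders. For Ptch1 and Sufu the overlap rested on Kdm3b+/- mouse 2 alone, where Ptch1 had 1.48 TPM. Gli1 was above Gli2 in both WT mice and below it in both Kdm3b+/- mice. The ranges of Boc and Ptch1, of Sufu and Smo, of Smo and Hhip, and of Gli1 and Shh did not overlap.

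**Figure D1:**
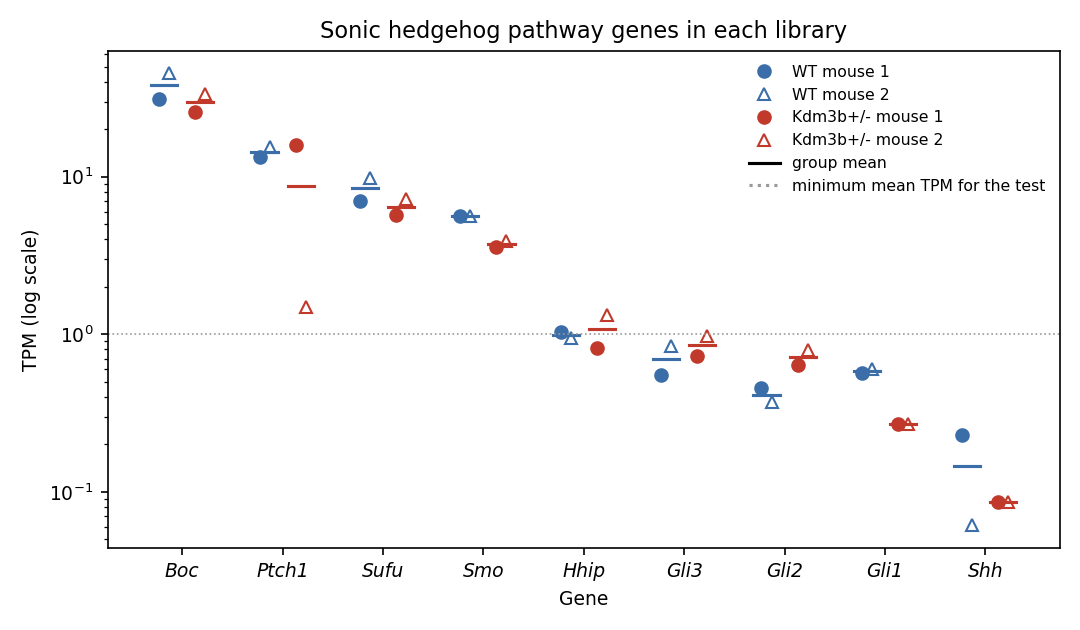
TPM of the 9 pathway genes in each of the 4 libraries, on a log axis, with WT and Kdm3b+/- mice in separate colours and a bar at each group mean and a dotted line at 1 TPM. Ptch1 has 3 libraries between 13.4 and 15.9 TPM and 1 Kdm3b+/- library at 1.48 TPM, while the other genes differ less between mice of 1 group.

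Shh, the secreted ligand (NCBI gene 20423, chromosome 5, 28456840 to 28467101, minus strand), had 0.23 and 0.0613 TPM in WT mice and 0.0856 and 0.0857 TPM in Kdm3b+/- mice. WT mouse 1 was the highest and WT mouse 2 the lowest, so that the Kdm3b+/- mice lay between them. The mean read depth over its exons was between 0.151 and 0.509, which is under 1 read per base, and its log2 fold change without the filter was -0.07 (SE 0.09, 95% CI -0.30 to 0.16, limma adjusted p = 0.755). It was 0.03 without WT mouse 1 and -0.18 without WT mouse 2. WT mouse 1 also had the highest summed level of 10 Purkinje cell markers, at 1620 TPM, against 709 TPM in WT mouse 2 and 904 and 731 TPM in the Kdm3b+/- mice. None of these markers was at 0 in all libraries, all 10 were tested and none was called DEX by limma. The median log2 fold change of the 10 was -0.50. An unadjusted p under 0.05 was found for 3 of them, all lower in Kdm3b+/- mice, where 11.5% of all tested genes were lower at that p. The part of Purkinje cell RNA in the Shh values was not tested, and in such bulk tissue fewer cells of a type and less RNA per cell cannot be told apart. The antisense gene 9530036O11Rik overlaps Shh, and since the sources do not state whether reads were assigned by strand, the reads of both may not be separable.

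Ptch1, the receptor that holds Smo inactive and is itself a target gene (gene 19206, chromosome 13, 63508328 to 63573460, minus strand), had 13.4 and 15.4 TPM in WT mice and 15.9 and 1.48 TPM in Kdm3b+/- mice. Kdm3b+/- mouse 1 was the highest of the 4 libraries and Kdm3b+/- mouse 2 stood far below the rest, so the groups overlapped. The deposited coverage comes from the same reads as the TPM, so it is no separate measurement. It gave a depth of 28.3 and 36.3 in WT mice and of 40 and 4.32 in Kdm3b+/- mice. The group means were 14.43 ± 1.43 TPM in WT mice and 8.68 ± 10.2 TPM in Kdm3b+/- mice (SD, n = 2), and the limma log2 fold change was -1.25 (SE 0.67, 95% CI -2.76 to 0.26, adjusted p = 0.369). Kdm3b+/- mouse 2 decided this value. Without it the log2 fold change was 0.13 (limma adjusted p = 0.88), and without Kdm3b+/- mouse 1 it was -2.63 (limma adjusted p = 5.18e-08), which passed the threshold. With 1 library left in a group, that library is assumed to vary like those of the other group.

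The higher Kdm3b+/- library exceeded the lower one by 10.7-fold for Ptch1, whereas the WT libraries differed by 1.15-fold. The median gene differed by 1.11-fold between the Kdm3b+/- libraries and by 1.16-fold between the WT libraries. At least as unequal as Ptch1 were 21 of 13652 genes (0.154%) between the Kdm3b+/- libraries, and 27 genes (0.198%) reached the same ratio between the WT libraries. No other deposited entry overlaps Ptch1. Its neighbour Fancc, a DNA repair gene, had 14.8 and 20 TPM in WT mice and 13.2 and 14.5 TPM in Kdm3b+/- mice, and its neighbour on the other side, 1700024I08Rik, was at or near 0 in every library. The cause of the low Ptch1 value in Kdm3b+/- mouse 2 was not tested.

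The 3 tested genes whose pattern over the 4 libraries lay nearest to Ptch1, by the Euclidean distance of centred log2(TPM + 1), were Kctd12, Ube2v1 and Akap8. Kctd12, an auxiliary subunit of GABA-B receptors, had 7.99 and 7.88 TPM in WT mice and 8.57 and 0 TPM in Kdm3b+/- mice (distance 0.471). Ube2v1, a ubiquitin-conjugating enzyme variant, had 335 and 356 TPM in WT mice and 356 and 34 TPM in Kdm3b+/- mice (distance 0.569). Akap8, an anchoring protein for protein kinase A, had 64.5 and 89.6 TPM against 65.9 and 16.1 TPM (distance 0.601).

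RefSeq promoter sequences of GRCm38.p6 were found for 6 of the 9 members (Ptch1, Smo, Gli2, Gli3, Sufu and Hhip). They hold 250 bases before an annotated start, which need not be the outermost start of the gene, and were searched on both strands. The Gli binding sequence GACCACCCA was in 0 of these 6 promoters and in 0.225% of 32851 promoters. Its inner letters CCACCC, a shorter motif that lies within it, were in 4 of the 6 (Gli2, Smo, Hhip and Gli3) and in 28.1% of all promoters, and the GC box GGGCGG was in 5 of the 6 (Gli2, Hhip, Gli3, Ptch1 and Sufu) and in 32.7% of all promoters. The promoters of Ptch1 (chr13:63565736-63565985, minus strand) and Smo (chr6:29735247-29735496, plus strand) are shown 5′ to 3′, since the largest spread between mice (Ptch1) and the lowest p (Smo) among the 5 tested members were those of these 2 genes. Capitals mark the GC box in Ptch1 and CCACCC in Smo.
Ptch1: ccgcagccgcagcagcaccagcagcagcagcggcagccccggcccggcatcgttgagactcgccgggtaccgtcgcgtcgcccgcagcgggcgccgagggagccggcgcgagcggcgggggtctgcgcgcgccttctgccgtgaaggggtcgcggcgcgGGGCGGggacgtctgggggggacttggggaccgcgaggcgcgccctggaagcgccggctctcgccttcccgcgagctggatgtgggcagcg
Smo: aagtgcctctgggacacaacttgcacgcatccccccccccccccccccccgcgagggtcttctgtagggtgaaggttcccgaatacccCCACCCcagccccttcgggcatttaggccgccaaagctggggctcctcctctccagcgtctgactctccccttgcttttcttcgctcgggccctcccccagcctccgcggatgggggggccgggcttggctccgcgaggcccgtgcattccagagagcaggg
The Ptch1 stretch lies inside the deposited span of the gene (63508328 to 63573460, minus strand), so it precedes an inner start. It holds 78.4% G and C, with its GC box at 91 to 86 bases before that inner start. The Smo stretch ends next to the deposited start of Smo (29735497). It holds 68.4% G and C, with CCACCC at 162 to 157 bases before that start. These matches describe the letters only.

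Smo, the membrane protein that carries the signal inward (gene 319757, chromosome 6, 29735497 to 29761366, plus strand), had 5.59 TPM in each WT mouse and 3.57 and 3.92 TPM in the Kdm3b+/- mice. Both Kdm3b+/- mice were below both WT mice, and the mean of 3.74 ± 0.25 TPM was 0.67 of the WT mean of 5.59 TPM (SD, n = 2). The limma log2 fold change was -0.48 (SE 0.17, 95% CI -0.86 to -0.09, adjusted p = 0.23), so the difference did not pass the threshold over all genes. An exact two-sided permutation test gave p = 0.333, the smallest value that 2 mice against 2 allow. With a correction for the length and GC content of transcripts, the log2 fold change was -0.22 (limma adjusted p = 0.525). Of all tested genes, 32% lay lower in both Kdm3b+/- mice than in both WT mice and 19.2% lay higher, and of the 5 tested members 1 (Smo) lay lower and 0 lay higher. The ratio of Ptch1 to Smo was 2.4 and 2.76 in WT mice and 4.45 and 0.378 in Kdm3b+/- mice, so the WT values lay between those of the Kdm3b+/- mice.

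Boc, a co-receptor that helps Shh bind Ptch1 (gene 117606, chromosome 16, 44485045 to 44558870, minus strand), had 31.1 and 45.3 TPM in WT mice and 25.8 and 33.6 TPM in Kdm3b+/- mice. The groups overlapped, and WT mouse 2 stood above the rest. The log2 fold change was -0.34 (SE 0.20, 95% CI -0.80 to 0.12, limma adjusted p = 0.419). Without WT mouse 2 it was -0.08 and without Kdm3b+/- mouse 1 it was -0.16, without WT mouse 1 it was -0.60 and without Kdm3b+/- mouse 2 it was -0.52, and with the correction for length and GC content it was -0.10. Hhip, which binds the ligand without signaling (gene 15245, chromosome 8, 79965851 to 80058008, minus strand), had 1.04 and 0.946 TPM in WT mice and 0.818 and 1.33 TPM in Kdm3b+/- mice. The WT mice lay between the Kdm3b+/- mice. The log2 fold change of Hhip was 0.05 (SE 0.21, 95% CI -0.43 to 0.53, limma adjusted p = 0.929), and it was -0.13 without Kdm3b+/- mouse 2.

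Sufu, which retains Gli proteins in the cytoplasm (gene 24069, chromosome 19, 46396896 to 46488804, plus strand), had 7.02 and 9.85 TPM in WT mice and 5.72 and 7.17 TPM in Kdm3b+/- mice. As for Boc, WT mouse 2 was the highest and Kdm3b+/- mouse 1 the lowest, and the groups overlapped. The log2 fold change of Sufu was -0.33 (SE 0.20, 95% CI -0.79 to 0.12, limma adjusted p = 0.42). It was -0.11 without WT mouse 2, -0.19 without Kdm3b+/- mouse 1, -0.55 without WT mouse 1 and -0.10 with the correction for length and GC content.

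**Figure D2:**
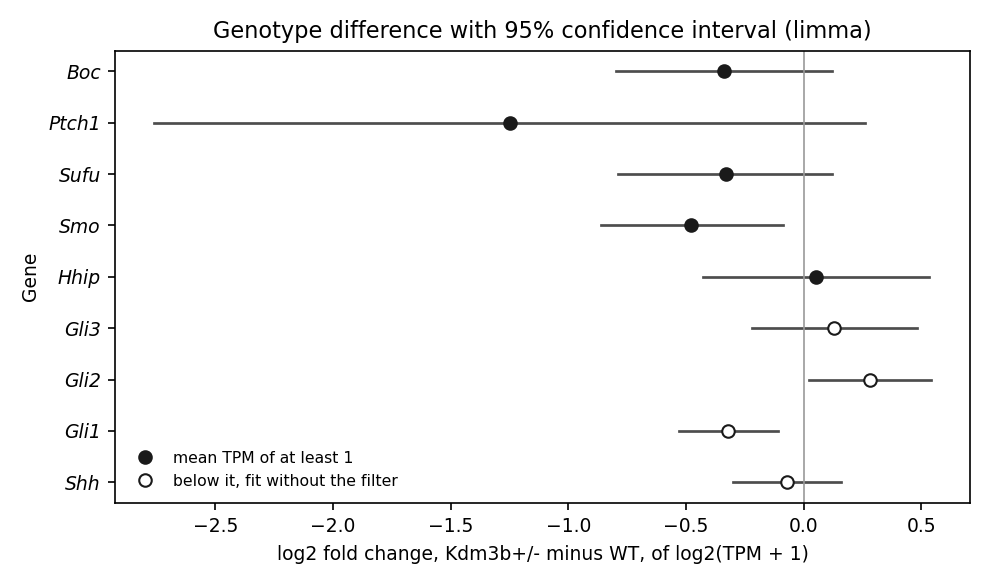
Log2 fold change (Kdm3b+/- over WT) of the 9 genes on the log2(TPM + 1) scale, with the 95% CI from limma; the genes under a mean TPM of 1 come from the fit without the filter. Ptch1 has the widest interval, from -2.76 to 0.26, and none of the genes passed the threshold.

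**Figure D3:**
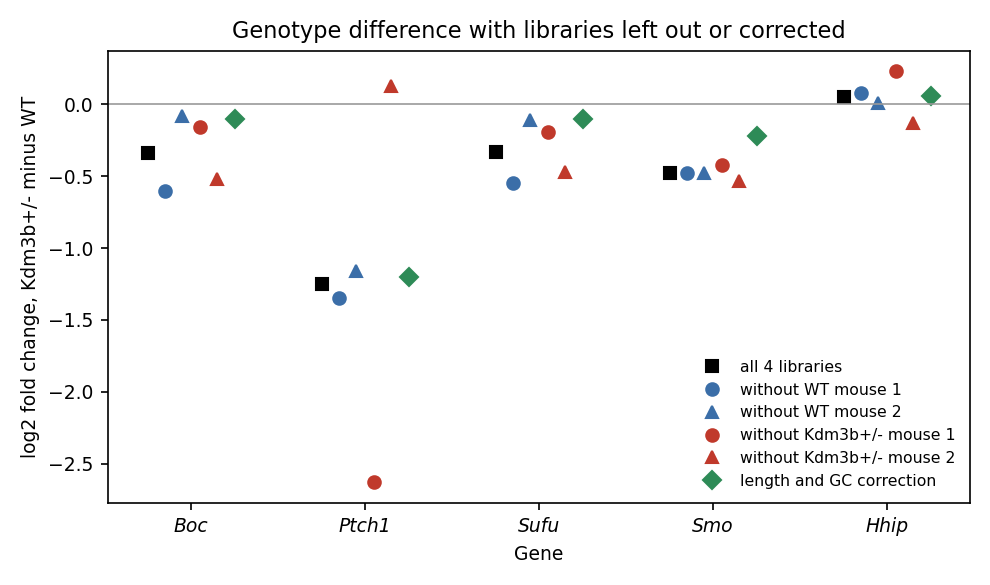
Log2 fold change of the tested members with all 4 libraries and after leaving out each library by itself, and with the correction for length and GC content (diamonds). Ptch1 runs from -2.63 without Kdm3b+/- mouse 1 to 0.13 without Kdm3b+/- mouse 2, whereas Smo, Boc and Sufu stay below 0 in each setting shown.

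Gli1, the transcriptional activator whose own level serves as a readout of the pathway (gene 14632, chromosome 10, 127329882 to 127341579, minus strand), had 0.569 and 0.601 TPM in WT mice and 0.271 TPM in each Kdm3b+/- mouse. Both Kdm3b+/- mice were below both WT mice, at a mean read depth between 0.717 and 1.48 over the exons. In the fit without the filter its log2 fold change was -0.32 (SE 0.08, 95% CI -0.53 to -0.11, limma adjusted p = 0.326), and it was -0.89 with a pseudocount of 0.1. Arhgap9 lies on the opposite strand and overlaps Gli1, so reads of both may not be separable where strand was not used.

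Gli2, an activator that works upstream of Gli1 (gene 14633, chromosome 1, 118834061 to 119053619, minus strand), had 0.458 and 0.37 TPM in WT mice and 0.64 and 0.792 TPM in Kdm3b+/- mice. Both Kdm3b+/- mice were above both WT mice, at a mean read depth between 0.916 and 2.42 over the exons. Its log2 fold change without the filter was 0.28 (SE 0.10, 95% CI 0.02 to 0.54, limma adjusted p = 0.381), and it was 0.67 with a pseudocount of 0.1. Gli3, which acts mainly as a repressor in the absence of ligand (gene 14634, chromosome 13, 15463723 to 15730025, plus strand), had 0.55 and 0.846 TPM in WT mice and 0.732 and 0.98 TPM in Kdm3b+/- mice. The groups overlapped, and the log2 fold change of Gli3 without the filter was 0.13 (SE 0.14, 95% CI -0.22 to 0.48, limma adjusted p = 0.711). It was 0.01 without WT mouse 1 and 0.26 without WT mouse 2.

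Gli1 and Gli2 thus had opposite orders between the groups. The ratio of Gli2 to Gli1 was 0.804 and 0.617 in WT mice and 2.36 and 2.93 in Kdm3b+/- mice, without overlap, whereas the summed level of the 3 Gli genes overlapped, with 1.58 and 1.82 TPM in WT mice and 1.64 and 2.04 TPM in Kdm3b+/- mice. This ratio was formed after the values were seen and was not tested. Its lack of overlap follows from the opposite orders of Gli1 and Gli2 and adds nothing to them. Of all 9 members, 2 (Smo and Gli1) lay lower in both Kdm3b+/- mice and 1 (Gli2) lay higher. Among the 19182 genes above 0 in at least 1 library, 27.1% lay lower and 17.7% lay higher in this way. An exact permutation test gave p = 0.333 for each of these 3 members, again the smallest value possible.

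The 3 tested genes nearest to Gli1 in pattern were found by the same measure. Since log2(TPM + 1) understates the change of a low gene such as Gli1, the nearness holds on that scale only. In TPM the Kdm3b+/- mean of Gli1 was 0.463 of its WT mean, a larger drop than in these 3 genes. Fech, the last enzyme of heme synthesis, had 102 and 105 TPM in WT mice and 84.4 and 84.2 TPM in Kdm3b+/- mice (distance 0.0265). The protein kinase gene Stk32a had 11.3 and 11.5 TPM against 8.74 and 8.78 TPM (distance 0.0279), and Wdr25 had 4.46 and 4.61 TPM against 3.41 and 3.52 TPM (distance 0.0288).

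Of 29 other hedgehog pathway genes, 19 were tested, and 0 were called DEX by limma. The 19 genes had a median log2 fold change of -0.20. In both Kdm3b+/- mice 11 of the 19 lay lower and 2 lay higher, where 32% and 19.2% of all tested genes did so. The cause was not tested. An unadjusted p under 0.05 was found for 3 of them, all lower in Kdm3b+/- mice, where 11.5% of all tested genes were lower at that p. The 3 were Grk2, a kinase that phosphorylates Smo (114 and 155 TPM in WT mice, 84.6 and 107 TPM in Kdm3b+/- mice, log2 fold change -0.49, SE 0.18), Mgrn1, a ubiquitin ligase that lowers Smo (log2 fold change -0.42, SE 0.15), and Gas1, a co-receptor (log2 fold change -0.37, SE 0.16). Their limma adjusted p were 0.24, 0.234 and 0.288. Disp1, which releases the ligand from producing cells, had 1.13 and 0.806 TPM in WT mice and 1.55 and 1.41 TPM in Kdm3b+/- mice (log2 fold change 0.34, SE 0.20, limma adjusted p = 0.414). Of the other ligands, Ihh had between 0.0939 and 0.463 TPM and Dhh between 0.018 and 0.135 TPM, and both overlapped between the groups.

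Hedgehog signals pass through the primary cilium, and all 11 genes of ciliary transport on the list were tested. None was called DEX by limma, and the median log2 fold change was 0.01. An unadjusted p under 0.05 was found for 2 of the 11, both lower in Kdm3b+/- mice, where 11.5% of all tested genes were lower at that p. Those 2 were Ift122, a subunit of the intraflagellar transport complex, and Inpp5e, a phosphoinositide phosphatase of the cilium. Ift122 had 17.1 and 18.6 TPM in WT mice and 10.5 and 12.5 TPM in Kdm3b+/- mice, without overlap (log2 fold change -0.59, SE 0.16, limma adjusted p = 0.158). Inpp5e had 21.8 and 25.5 TPM against 15.8 and 15.4 TPM, also without overlap (log2 fold change -0.57, SE 0.15, limma adjusted p = 0.158). The values of Bbs1 and Ift172 differed less, with log2 fold changes of -0.26 and -0.18 (limma adjusted p = 0.521 and 0.644). Bbs1 also lay lower in both Kdm3b+/- mice, whereas Ift172 overlapped. In all, 4 of the 11 lay lower in both Kdm3b+/- mice and 2 lay higher, where 32% and 19.2% of all tested genes did so.

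Of 9 known targets of hedgehog signaling outside the pathway, 6 were tested. Among these 6, 1 was called DEX, where 0.461% of all tested genes were called. Ccnd1, the cyclin that drives cells into S phase, had 5.23 and 6.96 TPM in WT mice and 15 and 13.9 TPM in Kdm3b+/- mice. Both Kdm3b+/- mice were above both WT mice, and Ccnd1 rose by 1.13 on the log2 scale (SE 0.18, 95% CI 0.73 to 1.54, limma adjusted p = 0.036). The call was kept in 12 of 16 alternatives, in which the adjusted p ran from 0.00675 to 0.272. Without WT mouse 1 the adjusted p was 0.0832 and without WT mouse 2 it was 0.0642. Ccnd2, a related cyclin, had 2.04 and 2.29 TPM in WT mice and 3.39 and 3.74 TPM in Kdm3b+/- mice (log2 fold change 0.53, SE 0.18, limma adjusted p = 0.217). Jag2, a Notch ligand, had 3.71 and 5.27 TPM against 2.16 and 3.58 TPM (log2 fold change -0.52, SE 0.23, limma adjusted p = 0.304), and Foxf1 had a log2 fold change of -0.25 (limma adjusted p = 0.569). The targets that belong to the pathway, Gli1, Ptch1 and Hhip, had the values given above and did not share the order of Ccnd1.

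**Figure D4:**
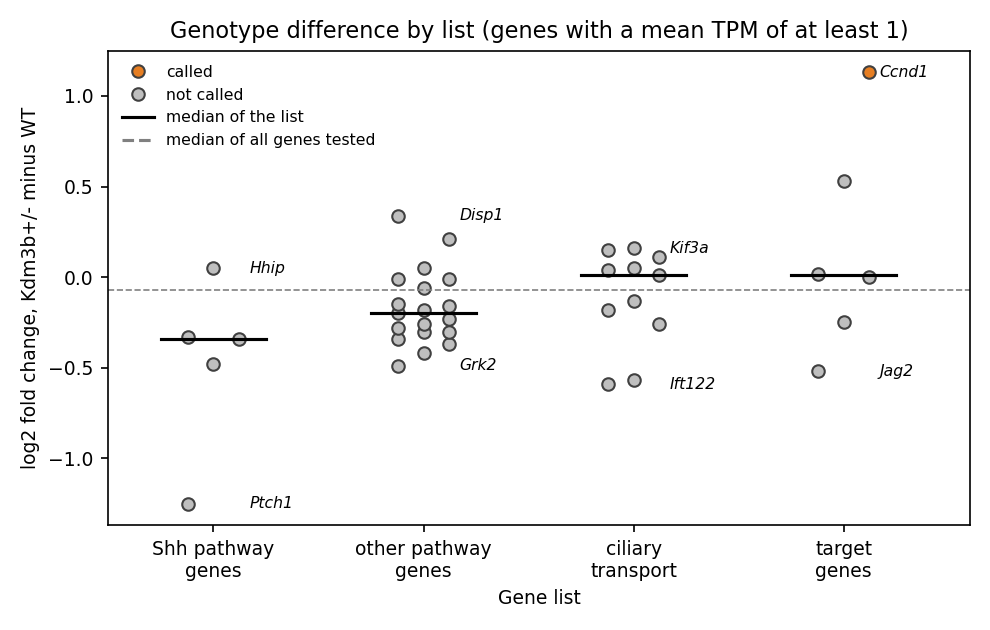
Log2 fold change (Kdm3b+/- over WT) of the tested genes of each pathway list, with 1 point per gene and a bar at the list median and a dashed line at the median of all tested genes (-0.07). The medians are -0.34 for the members, -0.20 for the other pathway genes and 0.01 for both the ciliary and the target genes, and Ccnd1 is the single DEX gene.

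Cell type markers were read in the same libraries, since granule cells, Purkinje cells and Bergmann glia differ in their use of the pathway. The 8 granule cell markers summed to between 3501 and 4284 TPM, so they were present in every library, and none was called DEX by limma. Atoh1, the defining transcription factor of granule cell precursors, was at 0 in all 4 libraries, and the 6 markers of precursors and proliferation summed to between 6.38 and 8.03 TPM, most of it from the transcription factor Barhl1 (4.96 to 5.59 TPM). The proliferation markers Mki67, Top2a, Ccnb1 and Cdk1 were too low to be tested. Ccnb1 and Cdk1 overlapped between the groups. Ccnb1 had 0.315 and 0.353 TPM in WT mice and 0.18 and 0.867 TPM in Kdm3b+/- mice. Cdk1 had 0.811 and 0.976 TPM against 0.797 and 0.981 TPM. Mki67 and Top2a lay higher in both Kdm3b+/- mice, as 17.7% of the genes above 0 in at least 1 library did. Mki67 had 0.0407 and 0.129 TPM in WT mice and 0.269 and 0.313 TPM in Kdm3b+/- mice, and Top2a had 0.058 and 0.0312 TPM against 0.173 and 0.278 TPM. The 6 oligodendrocyte markers summed to between 14758 and 17617 TPM, so the tissue also held myelin RNA. Among them, 1 (Mobp) was DEX with a log2 fold change of -0.93 (limma adjusted p = 0.0133), where 0.344% of all tested genes were called as lower.

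The 12 markers of astrocytes and Bergmann glia summed to 1604 and 1493 TPM in WT mice and to 1388 and 1582 TPM in Kdm3b+/- mice. Of these, 2 were called DEX, both higher in Kdm3b+/- mice, where 0.117% of all tested genes were called as higher. They were the water channel Aqp4 (59.2 and 82.3 against 150 and 152 TPM, log2 fold change 1.10, limma adjusted p = 0.0329) and the fatty acid binding protein Fabp7 (16.5 and 16.2 against 40.5 and 56.4 TPM, log2 fold change 1.49, limma adjusted p = 0.0133). Gdf10, which marks Bergmann glia, had 51.7 and 25.7 TPM in WT mice and 19.4 and 15.6 TPM in Kdm3b+/- mice (log2 fold change -1.03, limma adjusted p = 0.157). In all, 6 of the 12 markers lay lower in both Kdm3b+/- mice, Gdf10 included, and 3 lay higher, Aqp4 and Fabp7 included, where 32% and 19.2% of all tested genes did so. The 6 fibroblast and meningeal markers summed to 57.6 and 51.7 TPM in WT mice and to 33.7 TPM in each Kdm3b+/- mouse. Among them, 1 (Fmod) was DEX with a log2 fold change of -2.10 (limma adjusted p = 0.00168), where 0.344% of all tested genes were called as lower. Lum, another proteoglycan on that list, had 1.29 and 0.984 TPM in WT mice and 3.4 and 2.86 TPM in Kdm3b+/- mice (log2 fold change 0.95, limma adjusted p = 0.0997), and Igf2 had a log2 fold change of 0.21 (limma adjusted p = 0.639). The 7 inhibitory interneuron markers summed to 194 and 152 TPM in WT mice and to 123 and 125 TPM in Kdm3b+/- mice, without overlap. Most of that sum was Gad1, with 140 and 104 TPM in WT mice and 81.6 and 78.5 TPM in Kdm3b+/- mice. Of the 6 tested markers, 4 lay lower and 0 higher in both Kdm3b+/- mice, where 32% and 19.2% of all tested genes did so. Slc32a1, Slc6a5 and Tfap2b overlapped between the groups. None of the markers of Purkinje cells, inhibitory interneurons, oligodendrocyte precursors, microglia or endothelium was called DEX by limma, and the choroid plexus markers were at or below 1.44 TPM in sum. The part of these cell types in the values of Smo, Gli1, Gli2 and Ccnd1, whose groups did not overlap either, was not tested.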

How the data were processed

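Libraries were made from bulk RNA of GCE tissue, 1 library for each of 4 mice, and were grouped by the genotype that the labels give. Upstream of the deposited tables, STAR served as aligner (on quality-trimmed reads) and StringTie gave the abundance of each gene, per the authors' methods and the submitters' processing notes. The authors' DESeq2 step was not repeated, because the deposited tables hold no counts. Tool versions, genome build, annotation and strand setting are not given in the sources used here; the deposited starts and ends of the members lay within 786 bases of RefSeq of GRCm38.p6. The TPM, as deposited, were normalized by the authors for length and to 1000000 in each library, and the deposited FPKM for length and mapped fragments. The deposited coverage is unnormalized read depth averaged over exons.

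Entries with the same NCBI gene number (220 of 24532 numbers) were added up; every member had 1 entry. Symbols from RefSeq matched 24462 numbers. On the log2(TPM + 1) scale, limma 3.58.1 (lmFit, then eBayes with trend; R 4.3.3) was fitted with genotype as its term for 13652 genes, those reaching a mean TPM of 1, and p-values received Benjamini-Hochberg adjustment. DEX genes needed an adjusted p below 0.05 plus a fold change above 1.2. The robust variant used statmod 1.5.0. Python 3.11.15 with NumPy 2.4.6, pandas 2.3.3 and Matplotlib 3.10.9 made tables and plots. The fit was tested on simulated data. An exact permutation test was used for single members.

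The 16 alternatives changed the pseudocount (0.1), the unit (FPKM), the filter (none, or a mean TPM of 5), the scaling (median-ratio, quantile), the handling of repeated entries (highest in place of sum), the eBayes step (no trend, robust) or the model (replicate block, loess correction of span 0.5 for GC content and transcript length, both together), or left out 1 library at a time. An adjusted p without a fold limit was also tried. GENCODE transcripts of GRCm38 supplied length and GC content for 94.5% of tested genes and for all 9 members.

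The members and lists were chosen with earlier results of these data known. Named genes were the members, Kdm3b, the called genes of each further pathway list and otherwise its 4 largest fold changes, and the 3 genes nearest in pattern to Ptch1 and to Gli1. Marker genes, list members and neighbours named beyond these were chosen after their values were seen.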

Additional observations from a re-analysis of the deposited data

How the results depend on the processing

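The number of DEX genes was 63 (16 higher, 47 lower) and became 39 with FPKM (14 higher, 25 lower), 1 with no filter on low TPM (2418 genes at an unadjusted p under 0.05), 37 with eBayes without trend, and 21 to 188 with 1 library left out (21 without WT mouse 1, 188 without Kdm3b+/- mouse 2). Median-ratio scaling split 61 DEX genes into 23 higher and 38 lower. With the replicate number as a block, 600 genes were called, and 59 with the block and the length and GC correction together. Same-numbered mice were different animals, and the correlation of their deviations was 0.121 (0.0229 after the length and GC correction), so the number was not taken as a pairing. Leaving out 1 library gave 0 to 1 called members (Ptch1 without Kdm3b+/- mouse 1). The log2 fold change of Ptch1 then ran from -2.63 to 0.13 and that of Hhip from -0.13 to 0.23, with the sign of both turned without Kdm3b+/- mouse 2. That of Shh ran from -0.18 to 0.03 and that of Gli3 from 0.01 to 0.26. Smo, Boc and Sufu kept their sign and were not called in the alternatives in which they were tested. Among the further pathway lists, where 1 gene (Ccnd1) was called, 0 were called with no filter and 0 without trend, 3 with the replicate block (Ccnd1, Grk2 and Ift122) but Ccnd1 alone with the block and the correction, and 0 to 1 with 1 library left out. The log2 fold changes of the low genes depended on the pseudocount and unit. With a pseudocount of 0.1 they were -0.31 for Shh, -0.89 for Gli1 and 0.67 for Gli2, and with FPKM -0.16 for Gli1 and 0.17 for Gli2. The cause of these shifts was not tested. With 2 mice in each group, limma rests on a spread shared across genes, and the deposited values give no read counts, so counting error is unknown.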
